A study of Homo sapiens with 6 samples.

Results

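The genes described here are 10 genes of the Notch pathway measured with and without TGF-β1 in HK-2, a human renal proximal tubular epithelial line that has been immortalised. They are the ligands JAG1, JAG2 and DLL1, the receptors NOTCH1, NOTCH2 and NOTCH3, the glycosyltransferase LFNG, and the target genes HES1, HEY1 and HEYL. They were taken by gene name, with the entry on a primary chromosome, from 41497 named entries in each library. The set was chosen for the rise of JAG1 after TGF-β1 in these same libraries, to ask whether the receptors and targets follow. Their differences are therefore given as a description, with no p-value, and JAG1 itself is no finding.

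The study used RNA-seq to record how tubular cells respond to TGF-β1, a profibrotic cytokine. All cells were HK-2 cells with the wild-type genotype, and RNA was collected at 24 hours for 3 control libraries and 3 TGF-β1 libraries. Per the labels, the maintenance medium held fetal bovine serum. In the study's methods TGF-β exposure was done without serum, at a dose stated for TGF-β experiments in general. The dose is not repeated for the sequenced cells, and the serum of the control cells is not stated. HK-2 is a single cell line, and nothing in the labels says that the replicates came from separate cultures, so the spread between libraries may be technical.

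Notch signalling passes between touching cells. A Jagged or Delta ligand on one cell binds a Notch receptor on its neighbour, ADAM proteases and γ-secretase cut the receptor, and the freed intracellular domain joins RBPJ in the nucleus to switch on genes such as those of the HES and HEY families. Fringe enzymes, LFNG among them, add sugars to the receptor and alter which ligands activate it. In the kidney the pathway patterns the proximal nephron during development, and JAG1 in tubular cells has been linked to fibrosis after injury.

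The promoters of JAG1, HES1, HEYL and NRARP are shown because they belong to the ligand the set was chosen for and to target genes that differed in level and response. HES1 rose, HEYL was close to the detection limit, and NRARP, a target gene outside the set that restrains the receptor, was not called. Each line gives the 250 bases before the annotated start, 5′ to 3′ on the strand of the gene, from RefSeq GRCh38.p14. Capitals mark TGGGAA or its reverse complement TTCCCA, the core of the RBPJ motif, together with the preceding G or following C where the longer form GTGGGAA or TTCCCAC was present.
JAG1, chr20:10674000-10674249, minus strand: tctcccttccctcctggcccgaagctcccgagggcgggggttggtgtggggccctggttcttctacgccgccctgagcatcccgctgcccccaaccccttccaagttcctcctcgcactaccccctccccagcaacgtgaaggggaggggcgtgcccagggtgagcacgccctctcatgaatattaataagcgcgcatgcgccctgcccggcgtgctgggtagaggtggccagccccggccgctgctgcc
HES1, chr3:194135898-194136147, plus strand: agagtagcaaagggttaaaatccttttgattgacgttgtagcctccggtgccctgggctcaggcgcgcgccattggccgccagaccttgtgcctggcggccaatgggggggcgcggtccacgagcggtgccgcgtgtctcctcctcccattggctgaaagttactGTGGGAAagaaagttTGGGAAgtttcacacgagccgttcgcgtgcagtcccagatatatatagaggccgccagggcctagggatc
HEYL, chr1:39639644-39639893, minus strand: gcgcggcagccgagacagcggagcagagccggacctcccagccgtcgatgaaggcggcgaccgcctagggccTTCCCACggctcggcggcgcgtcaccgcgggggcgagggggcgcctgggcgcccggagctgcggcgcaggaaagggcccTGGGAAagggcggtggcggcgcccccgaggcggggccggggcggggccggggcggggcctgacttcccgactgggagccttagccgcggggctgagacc
NRARP, chr9:137302272-137302521, minus strand: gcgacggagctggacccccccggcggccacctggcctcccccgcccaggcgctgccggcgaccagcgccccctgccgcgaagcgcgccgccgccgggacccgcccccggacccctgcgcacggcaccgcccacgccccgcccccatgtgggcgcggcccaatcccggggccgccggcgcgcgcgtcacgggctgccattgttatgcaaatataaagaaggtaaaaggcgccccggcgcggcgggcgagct

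Motifs were counted on both strands in RefSeq windows from 250 bases before to 50 bases after the start. A window was used for 8 of the 10 genes. Windows on chromosome 8, where HEY1 lies, were left out, and no window was used for DLL1. The window of HES1 held TGGGAA at positions -84 and -70 from the start, both on the strand of the gene, and the first of them was part of GTGGGAA. HEYL held the core at -178, on the opposite strand and as the longer form, and at -99. LFNG held it once, at -5 on the opposite strand. The windows of JAG1, JAG2, NOTCH1, NOTCH2, NOTCH3 and NRARP held no match. Among all 35116 windows, 24.0% held the core and 6.25% the longer form.

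The SMAD motif CAGAC (reverse complement GTCTG) occurred in the windows of JAG1, at -1, of HES1, at -170, and of LFNG, at -222 and -1, and 45.3% of all windows held it. The palindrome GTCTAGAC was found in none of these windows and in 0.202% of all. The N-box CACNAG (reverse complement CTNGTG), which HES proteins bind, had 4 matches in the window of HES1, 2 in that of NOTCH1 and 1 each in those of NOTCH2, NOTCH3 and NRARP, and 38.0% of all windows held at least 1. These matches describe letters in the reference and say nothing about binding in these cells.

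The libraries held 21.9 to 26.9 megacounts. Pearson correlations of log2 CPM (counts scaled to the TMM-adjusted library size) across genes were 0.989 to 0.992 within groups and 0.961 to 0.966 between them. All 6 TGF-β response genes examined, among them SMAD7 and CCN2, were called higher after TGF-β1, beside 22.2% of all entries tested. Of 11 proximal tubule markers, PAX8 and GGT1 were plainly expressed, 8 were below 1 TPM (counts scaled by gene length and library) in every library, and LRP2 and SLC22A6 had no read at all. Their summed TPM was 281.5 to 307.4 in control libraries and 161.5 to 181.4 in treated ones, with PAX8 and GGT1 called lower and AQP1, from 28 to 123 reads, and CUBN, from 34 to 61 reads, called higher. The label of a proximal tubule line thus rests here on few defining markers. The epithelial keratins were expressed, with KRT8 and KRT18 called higher and KRT19 called lower after TGF-β1. EPCAM was also called lower, and CDH1 had at most 3 reads per library. Summed TPM of 4 endothelial markers was 0.617 to 1.15 in control and 0 to 0.0195 after TGF-β1, with CDH5, at 16 to 29 reads in control, at 0. Summed TPM of 4 fibroblast and pericyte markers was 71.6 to 86.3 in control and 58.8 to 62.8 after TGF-β1, nearly all of it LUM, while PDGFRB went from 10 to 15 reads to 113 to 151 reads and DCN stayed at 2 to 5 reads. The part of these changes in the results below was not tested. In bulk RNA, fewer cells carrying a transcript and less of it per cell cannot be told apart.

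After TGF-β1, JAG1, HES1, HEY1, NOTCH2 and LFNG were called higher, JAG2 was called lower, and NOTCH1 and NOTCH3 were not called. A gene was called at an adjusted p under 0.05 in edgeR's quasi-likelihood test, with adjustment over all 14860 entries tested. Of the 10 genes, 8 passed the filter on low counts, and 6 of these were called, 5 higher and 1 lower. Over all entries tested, 44.3% were called, 22.2% higher and 22.1% lower, which is 3294 higher and 3288 lower. Scaling by total counts only moved the median log2 fold change of all entries by -0.11 and gave 2134 higher and 4590 lower. The median log2 fold change was 0.47 for the 8 genes and 0.01 for all entries. Since the set was chosen in this contrast, the calls only label where each gene stood in the fit, and nothing is read from them or from these shares.

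**Figure D1:**
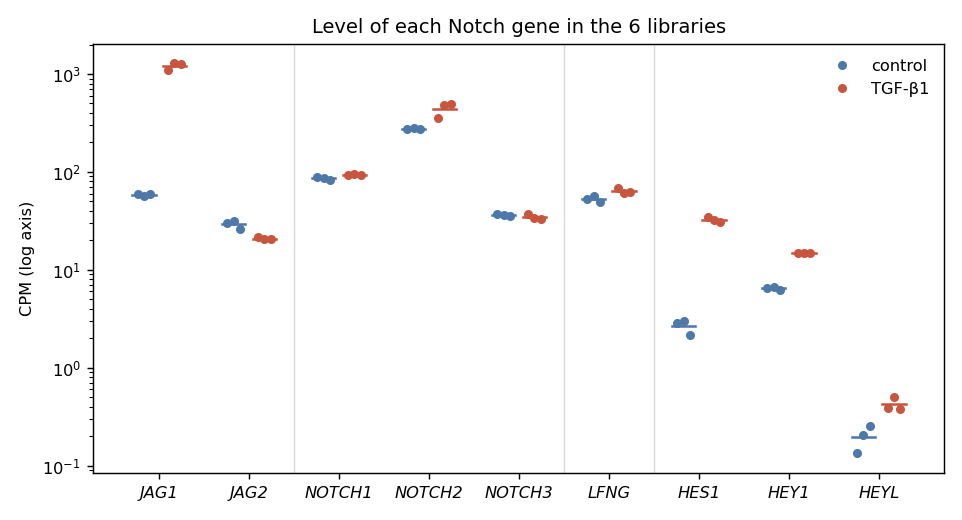
Level of each Notch gene in CPM on a log axis, with 1 point per library and a bar at the mean of 3 libraries, control in blue and TGF-β1 in red. JAG1 and HES1 moved by more than any other gene drawn, while the NOTCH3 points of both groups overlapped. DLL1 had no reads and is not drawn.

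Among the ligands, JAG1 rose and JAG2 fell, and DLL1 was not detected. JAG1 (gene-JAG1, GRCh38 chromosome 20, 10637684 to 10673999, minus strand) encodes a Jagged ligand and is itself a known Notch target in several tissues. It had 1350, 1374 and 1398 counts in the control libraries and 28726, 30987 and 26340 counts after TGF-β1. In CPM the control libraries were at 59.8, 56.2 and 59.6, and the treated ones at 1103, 1282 and 1258. The groups were far apart, and the lowest treated library lay well above the highest control library. The means were 58.5 ± 2.04 and 1214 ± 96.8 CPM (SD, n = 3), a log2 fold change of 4.37 ± 0.08 (SE) or 20.7-fold. Counted from the highest log2 fold change down, JAG1 stood in place 26 of the 14860 entries tested, and in place 7 of the 10719 with a mean of at least 5 CPM. By TPM it went from places 4984 to 5255 among named entries on primary chromosomes in control to places 176 to 233 after TGF-β1.

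JAG2 (gene-JAG2, chromosome 14, 105140981 to 105168776, minus strand), the other Jagged ligand, moved the other way. It was at 29.9, 31.6 and 26.0 CPM in control and at 21.6, 20.5 and 20.4 CPM after TGF-β1. All treated libraries lay below all control libraries, with a log2 fold change of -0.48 ± 0.08 (SE), 0.715 of the control level.

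DLL1 (gene-DLL1, chromosome 6, 170282200 to 170291078, minus strand), a Delta-like ligand, had 0 reads in all 6 libraries. A count of 0 allows up to 0.0426 CPM over the control libraries together and 0.0422 CPM over the TGF-β1 libraries together, at 3 counts, for counting error only. An entry of the same name on an alternate contig had 1 read, in control replicate 3. FAM120B overlaps the start of DLL1 on the opposite strand and had 21, 27 and 29 reads in control and 28, 121 and 15 after TGF-β1, and these reads were not counted to DLL1.

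Among the Jagged and Delta-like ligands, the composition shifted toward JAG1. The set was chosen for the rise of JAG1, so this shift and the summed ligand level follow from that choice and are no separate finding. On the TPM scale, which corrects for transcript length, JAG1 was 1.73 to 2.23 times JAG2 in the control libraries and 49.8 to 60.9 times JAG2 after TGF-β1. Of the summed TPM of JAG1, JAG2, DLL1, DLL3 and DLL4, JAG1 made up 57.8 ± 2.45% in control and 97.4 ± 0.273% after TGF-β1 (SD, n = 3). JAG2 made up 29.5 ± 2.53% and 1.73 ± 0.195%, and DLL3 12.3 ± 0.819% and 0.836 ± 0.0935%. The summed ligand level went from 56.7 ± 0.769 to 644 ± 66.9 TPM.

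The receptors did not move by a similar size. NOTCH2 rose, and NOTCH1 and NOTCH3 were at 1.08 and 0.961 of the control level without being called. NOTCH2 (gene-NOTCH2, chromosome 1, 119911553 to 120069662, minus strand), the receptor that proximal nephron formation depends on most, was at 273, 282 and 276 CPM in control and at 356, 487 and 489 CPM after TGF-β1. The groups did not overlap, but TGF-β1 replicate 1 lay closer to the control libraries than to the other treated ones. The means were 277 ± 4.46 and 444 ± 76.2 CPM (SD, n = 3), with a log2 fold change of 0.68 ± 0.12 (SE) or 1.60-fold.

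Without TGF-β1 replicate 1 the log2 fold change of NOTCH2 was 0.81, and without either of the other treated libraries it was 0.60. That library differed from the other treated libraries by gene length. Among 2165 genes of 5 CPM or more on average and an exon length of 8 kb or more, its median log2 level was -0.17 relative to them, and among 3016 genes under 3 kb it was 0.12. The same medians lay between -0.07 and 0.10 in the other 5 libraries. NOTCH2 has an exon length of 11784 bases, the longest of the 10 genes, and the part of length in its spread was not tested.

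NOTCH2 has near-identical partial copies, NOTCH2NLA, NOTCH2NLB and NOTCH2NLC, so reads could be split among them. Their summed reads were 4.88% to 6.35% of the reads of NOTCH2 and copies together in control libraries, against 1.97% to 2.54% in treated ones. None was called, with log2 fold changes of -0.49 ± 0.23, -0.65 ± 0.31 and -0.58 ± 0.22 (SE) and edgeR adjusted p of 0.104, 0.113 and 0.0695. Their values had the opposite sign to that of NOTCH2.

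NOTCH1 (gene-NOTCH1, chromosome 9, 136494433 to 136546048, minus strand) was at 89.1, 87.5 and 83.3 CPM in control and at 92.2, 96.1 and 92.7 CPM after TGF-β1. The treated libraries all lay above the control ones, but the log2 fold change was 0.11 ± 0.05 (SE) and the gene was not called. On the TPM scale its groups overlapped, at 30.1 ± 0.514 and 30.02 ± 1.43 TPM (SD, n = 3), and with scaling by total counts only its log2 fold change was 0.0052.

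NOTCH3 (gene-NOTCH3, chromosome 19, 15159038 to 15200995, minus strand), a receptor best known from smooth muscle and pericytes, was at 36.8, 36.2 and 35.1 CPM in control and at 36.8, 34.0 and 33.1 CPM after TGF-β1. The groups overlapped in CPM and the log2 fold change was -0.06 ± 0.06 (SE). On the TPM scale the groups did not overlap, at 13.8 ± 0.0885 and 12.2 ± 0.391 TPM (SD, n = 3). With scaling by total counts only the log2 fold change of NOTCH3 was -0.16, and the gene was not called. An uncalled difference does not show that NOTCH1 and NOTCH3 were unchanged.

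In summed TPM the receptors went from 122 ± 1.88 to 158 ± 23.7 (SD, n = 3), with NOTCH4 adding 1 read in all 6 libraries. The share of NOTCH2 in the sum was 63.1% to 64.8% in control libraries, against 68.5% to 75.5% in treated ones. The ratio of summed Jagged and Delta-like ligand to summed receptor TPM was 0.464 ± 0.0134 in control and 4.10 ± 0.213 after TGF-β1. This ratio moved with JAG1, for which the set was chosen, and is likewise no separate finding. The sums describe transcripts and not protein at the cell surface.

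**Figure D2:**
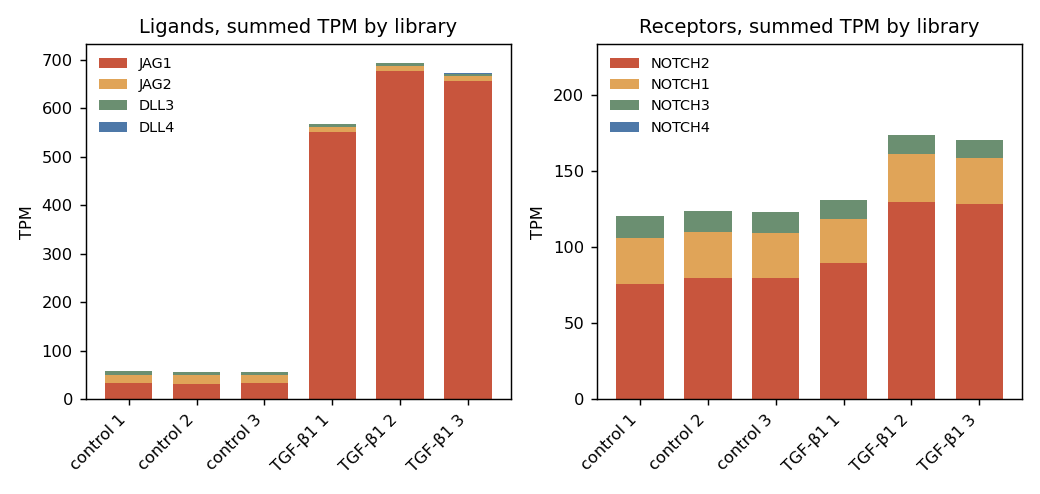
Stacked TPM of the ligands JAG1, JAG2, DLL3 and DLL4 (left) and of the receptors NOTCH2, NOTCH1, NOTCH3 and NOTCH4 (right) in each of the 6 libraries, with separate vertical axes that start at 0. The ligand stack grew from 56.2 to 57.6 TPM in control to 568 to 693 TPM after TGF-β1 through JAG1, and the receptor stack from 120 to 124 TPM to 131 to 173 TPM through NOTCH2.

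LFNG (gene-LFNG, chromosome 7, 2512529 to 2529177, plus strand), the fringe enzyme, was at 53.2, 56.2 and 49.1 CPM in control and at 67.7, 60.6 and 62.4 CPM after TGF-β1. The groups did not overlap. The log2 fold change was 0.27 ± 0.07 (SE), 1.20-fold, and with scaling by total counts only it was 0.16 and the call was lost. LFNG made up 67.6% to 69.1% of the summed TPM of the fringes LFNG, MFNG and RFNG in control and 73.5% to 79.04% after TGF-β1, and the sum itself was 79.9 ± 5.08 and 79.8 ± 5.15 TPM (SD, n = 3).

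Among the targets, HES1 rose most, HEY1 rose less and HEYL was too low to pass the filter. HES1 (gene-HES1, chromosome 3, 194136148 to 194138732, plus strand), a transcriptional repressor and a classical direct Notch target, had 65, 73 and 50 counts in control and 910, 774 and 646 counts after TGF-β1. In CPM the control libraries were at 2.88, 2.98 and 2.13, and the treated ones at 34.9, 32.0 and 30.8. The groups were well apart, with means of 2.67 ± 0.466 and 32.6 ± 2.11 CPM (SD, n = 3) and a log2 fold change of 3.61 ± 0.12 (SE) or 12.2-fold. Counted in the same way, HES1 stood in place 46 of all entries tested, and in place 14 of those with a mean of at least 5 CPM. That mean was over all libraries, so HES1, under 5 CPM in every control library, passed through the treated ones. Its promoter, shown above, held 2 TGGGAA matches, as did that of HEYL. Whether these form a paired site was not tested, and the share of all windows with 2 matches was not counted.

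HEY1 (gene-HEY1, chromosome 8, 79764010 to 79767767, minus strand), a related repressor that is also a Notch target, was at 6.47, 6.62 and 6.22 CPM in control and at 15.0, 14.8 and 14.8 CPM after TGF-β1. The groups did not overlap, with means of 6.44 ± 0.202 and 14.8 ± 0.127 CPM (SD, n = 3). The log2 fold change was 1.20 ± 0.08 (SE), 2.30-fold.

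HEYL (gene-HEYL, chromosome 1, 39623435 to 39639643, minus strand) had 3, 5 and 6 reads in control and 10, 12 and 8 after TGF-β1. The summed reads, 14 and 30, gave a ratio of 2.12 after scaling, with a 95% exact binomial interval of 1.09 to 4.33 that covers counting error only. In the fit with no filter HEYL was tested and was not called. Its level stayed at 0.276 to 0.376 TPM after TGF-β1.

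The balance of the targets changed with the rise of HES1. In control HEY1 was the higher of the pair, with a ratio of HES1 to HEY1 of 0.540 to 0.710 in TPM, and after TGF-β1 HES1 was the higher, with a ratio of 3.29 to 3.68. Summed TPM of HES1, HEY1 and HEYL went from 14.4 ± 1.02 to 82.03 ± 2.43 (SD, n = 3).

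**Figure D3:**
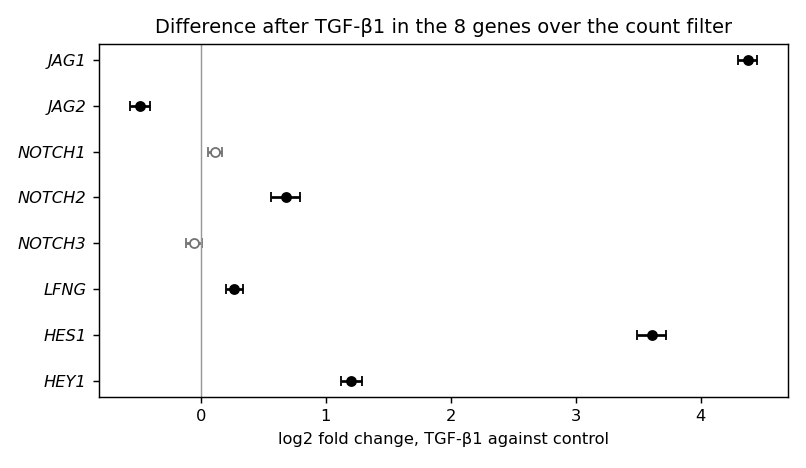
Log2 fold change of TGF-β1 against control for the 8 Notch genes over the count filter, with bars of ± 1 SE from the edgeR fit on 3 libraries per group. Filled points were called and open points were not. JAG1 at 4.37 and HES1 at 3.61 stood far to the right, and NOTCH1 and NOTCH3 lay near 0.

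The order of levels on the TPM scale changed with treatment. In control it ran from NOTCH2 at 78.2 ± 2.16 TPM through LFNG at 54.5 ± 3.18, JAG1 at 32.8 ± 1.32, NOTCH1 at 30.1 ± 0.514, JAG2 at 16.7 ± 1.44, NOTCH3 at 13.8 ± 0.0885, HEY1 at 8.63 ± 0.201 and HES1 at 5.62 ± 0.907 to HEYL at 0.160 ± 0.0524 TPM (SD, n = 3). Neighbours in this order did not overlap over the 3 control libraries. After TGF-β1 JAG1 came first at 628 ± 66.8 TPM, followed by NOTCH2 at 116 ± 22.7, HES1 at 63.4 ± 2.63 and LFNG at 60.3 ± 1.76 TPM. HES1 and LFNG overlapped in that group. NOTCH1 at 30.02 ± 1.43, HEY1 at 18.3 ± 0.369, NOTCH3 at 12.2 ± 0.391, JAG2 at 11.03 ± 0.105 and HEYL at 0.313 ± 0.0552 TPM came after them without overlap between neighbours. Over the 8 genes tested, CPM values of the groups did not overlap for 7, beside 55.6% of all entries tested.

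Genes with a pattern close to that of JAG1 over the 6 libraries included GASK1B, ODAPH, NTF4 and PSMC4. Likeness was the distance of log2(CPM + 1) values after subtracting each gene's control mean, among genes that averaged at least 5 CPM over all libraries. GASK1B, NTF4 and PSMC4 averaged under 5 CPM in control and passed through the treated libraries. The distance to JAG1 was 0.940 for GASK1B, which went from 3.74 ± 0.463 to 65.6 ± 1.49 CPM (SD, n = 3), and 0.976 for ODAPH, from 15.2 ± 1.51 to 229.7 ± 18.7 CPM. It was 0.982 for NTF4, a neurotrophin, and 1.32 for PSMC4, whose treated libraries spread widely at 49.7 ± 21.6 CPM and whose name has a further entry on an alternate contig that makes its value uncertain. Adding 1 CPM shrinks the changes of the lower genes, so this order depends on level.

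Of 71 other Notch pathway genes listed by role, 58 were tested, with 15 called higher and 13 called lower. That is 48.3% of those tested, beside 44.3% of all entries, and their median log2 fold change was -0.02 beside 0.01. The share called was near that of all entries. The counts by role below come from short lists and stand beside 22.2% of all entries called higher and 22.1% called lower.

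**Figure D4:**
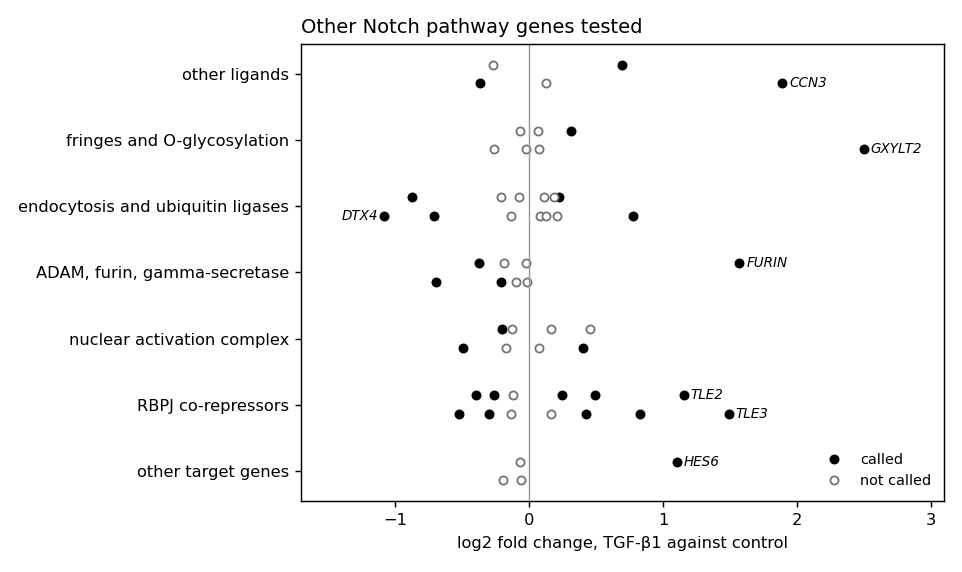
Log2 fold change of TGF-β1 against control for the 58 other Notch pathway genes tested, 1 point per gene, grouped by role. Filled points were called by edgeR and open points were not, and names mark genes at 1 or more in size. The points spread to both sides of 0 in most roles, with GXYLT2 farthest to the right at 2.50.

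Among 5 other ligands tested, 2 were called higher and 1 lower. CCN3 (chromosome 8), a secreted matricellular protein reported to bind Notch, rose from 112 ± 3.15 to 413.5 ± 9.38 CPM (SD, n = 3), or 1.89 ± 0.05 (SE) as a log2 fold change, at an adjusted p of 8.9e-10 in edgeR. DNER rose by 0.69 ± 0.17 (SE) on the log2 scale, and DLK2, at -0.37 ± 0.13, was called lower, a call that was lost with no filter, with DESeq2, with the replicate block, and when any library but control replicate 3 was left out.

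Of 7 genes for O-glycosylation tested, 2 were called higher and none lower. GXYLT2, which adds xylose to the O-glucose on EGF repeats of Notch, rose from 6.04 ± 0.343 to 34.2 ± 1.82 CPM (SD, n = 3), or 2.50 ± 0.08 (SE) as a log2 fold change, at an adjusted p of 2.1e-09 in edgeR. XXYLT1, which extends the same sugar chain, rose by 0.31 ± 0.07 (SE).

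Of 8 genes for receptor cleavage tested, 1 was called higher and 3 lower. FURIN, the convertase that cuts the Notch precursor and many others, rose from 45.2 ± 1.33 to 134 ± 8.59 CPM, or 1.57 ± 0.06 (SE) as a log2 fold change, at an adjusted p of 1.1e-08 in edgeR. The sheddase gene ADAM10 was lower at -0.37 ± 0.07 (SE), and PSEN2, a catalytic subunit of γ-secretase, was lower at -0.69 ± 0.09 (SE).

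Of 13 genes for endocytosis and ubiquitin ligases tested, 2 were called higher and 3 lower. DTX4, a Deltex ligase, fell from 7.91 ± 1.05 to 3.75 ± 0.487 CPM, or -1.08 ± 0.15 (SE) as a log2 fold change, at an adjusted p of 0.00014 in edgeR. NEURL1B and DTX3L were lower at -0.88 ± 0.15 and -0.71 ± 0.07 (SE). NUMB and NUMBL, adaptors known to restrain Notch, were higher at 0.22 ± 0.05 and 0.78 ± 0.08 (SE).

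In the nuclear activation complex, 1 of 8 genes tested was called higher and 2 lower. The largest called difference was that of KAT2B, a histone acetyltransferase, at -0.49 ± 0.11 (SE) with an edgeR adjusted p of 0.0032. RBPJ, the DNA-binding partner of Notch, which was chosen after its value was seen, went from 107 ± 4.22 to 120.2 ± 12.1 CPM, or 0.16 ± 0.07 (SE) as a log2 fold change, at an adjusted p of 0.0967 in edgeR, and it was called with no filter, with the replicate block, and when TGF-β1 replicate 1 was left out.

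Of 13 co-repressor genes of RBPJ tested, 6 were called higher and 4 lower. TLE3, a Groucho-type co-repressor that also serves HES proteins, rose from 22.5 ± 1.68 to 63.2 ± 1.70 CPM, or 1.49 ± 0.07 (SE) as a log2 fold change, at an adjusted p of 3.1e-08 in edgeR. Its relative TLE1 was lower at -0.53 ± 0.05 (SE). TLE2 was called at 1.15 ± 0.40 (SE) with an edgeR adjusted p of 0.0372, but it lay between 0.341 and 1.65 CPM, its groups overlapped, and leaving out TGF-β1 replicate 1 gave 0.79 and an adjusted p of 0.12, in a range of 0.00493 to 0.134 over the alternatives run. NCOR1 was lower at -0.30 ± 0.07 (SE).

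Of 8 other genes listed with the targets, all of the HES and HEY families but NRARP, 4 passed the filter and 1 of these was called. HES6 rose from 1.81 ± 0.369 to 3.90 ± 0.386 CPM (SD, n = 3), or 1.10 ± 0.19 (SE) as a log2 fold change, at an adjusted p of 0.00071 in edgeR. It differs from its relatives in that it counters HES1, and its rise is not read as that of a Notch target.

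HES4, HES7 and NRARP were not called. NRARP was at 8.77, 8.71 and 9.93 CPM in control and at 9.14, 8.35 and 8.83 CPM after TGF-β1, a log2 fold change of -0.06 ± 0.10 (SE) at an adjusted p of 0.662 in edgeR. HES4 was at 13.6 ± 0.812 and 12.9 ± 1.19 CPM, with -0.07 ± 0.09 (SE) and an adjusted p of 0.558. HES7 was at 2.35 ± 0.476 and 2.05 ± 0.183 CPM, with -0.19 ± 0.19 (SE) and an adjusted p of 0.453. HES3 and HES5 had no reads, and HES2 and HEY2 had 9 and 6 reads in control and 13 and 7 after TGF-β1.

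Besides FAM120B at DLL1, the entries that overlap the Notch genes were microRNA entries with few reads. MIR6765 within JAG2, MIR4673 within NOTCH1 and MIR6795 within NOTCH3 had 0 reads in every library. MIR4648 within LFNG had 3 control reads and 5 treated reads, and MIR6870 within JAG1 had 0 and 6. Within 20 kb of the Notch genes, 5 further genes were tested. NUDT14 beside JAG2 had 800 control reads and 572 treated reads and was called lower, at -0.49 ± 0.12 (SE) on the log2 scale and an adjusted p of 0.0061 in edgeR, next to -0.48 ± 0.08 for JAG2. SLX4IP beside JAG1 had 1006 control reads and 1156 treated reads and was not called, at 0.20 ± 0.09 (SE) and an adjusted p of 0.114. SEC16A and C9orf163 beside NOTCH1 and BRAT1 beside LFNG were not called either.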

How the data were processed

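Poly(A) RNA from 3 control and 3 TGF-β1 libraries was sequenced as paired reads on an MGI platform. The authors made the deposited files, which hold raw counts per gene entry, and TPM and FPKM values that the authors derived from the counts. The submitters' processing notes name CASAVA, featureCounts 2.0.1, DESeq2 1.16.1 and hg38. The aligner, the annotation release and the handling of strand and of reads with several matches are not given in the sources used here. Each table had 42095 entries, 41497 of them with a gene name, and 7 records broken over lines were rejoined. The 598 loci without a name, with 0.396% to 0.464% of the counts, were left out. FPKM values were not used.

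Entries were filtered with filterByExpr of edgeR 4.0.16 (minimum count 10), scaled by TMM and compared with the two-sided quasi-likelihood F test with robust dispersion, with Benjamini-Hochberg adjustment over all entries tested. The fitted log2 fold changes used a prior count of 0.125. The SE of a log2 fold change came from its size over the root of F. Python 3.11.15 with scipy 1.17.1, pandas 2.3.3 and matplotlib 3.10.9, and R 4.3.3 with DESeq2 1.42.0 and limma 3.58.1, were also used. The tests were checked on simulated data. There the share of calls that fell on unchanged genes was above the adjusted p threshold of 0.05 for edgeR, limma-voom and DESeq2. Far fewer genes were changed in the simulation than were called in the data, so the share among the calls above may differ. Totals per library were 21.9 to 26.9 megacounts, and intervals and limits cover counting error only.

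The Notch genes, the pathway and marker lists and the tests were chosen with earlier results of these data known. Named were all 10 genes, every pathway gene called with a log2 fold change of at least 1 in size, the largest called gene of each role, the 5 genes most like JAG1, entries that overlap the 10 genes, and the NOTCH2NL copies. Some genes of these lists and of this rule are counted but not reported by name. Other members of the pathway list named with values were chosen after these were seen. Alternatives were RLE size factors, total counts only, no filter, a mean of at least 50 counts, DESeq2, limma-voom, a replicate block, entries of a name summed, a prior count of 2, and leaving out each library.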

Additional observations from a re-analysis of the deposited data

Results flagged for a closer look

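Reads above the level of the control libraries were found in 2 entries that no comparison used, since both were under the count filter. MIR6870, a microRNA entry within the span of JAG1 (chromosome 20, 10649636 to 10649695), had no control read, and 6 reads in the TGF-β1 libraries, as 1, 4 and 1. LOC102724877, upstream of HES1 (chromosome 3, 194069316 to 194123474), likewise had no control read, and 5 reads in the TGF-β1 libraries, as 2, 2 and 1. What these reads came from was not tested.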

How the results depend on the processing

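The 5 Notch genes called higher and the 1 called lower gave the same counts under the alternatives run, except total counts only, where 4 were called higher because LFNG lost its call. Leaving out each library in turn gave 5 and 1 throughout. Since the set was chosen in this contrast, these counts only describe how the labels depend on processing. Of the other pathway genes, 15 were called higher and 13 lower. With total counts only 22 were called lower, a setting that moved the median log2 fold change of all entries by -0.11, and leaving out single libraries gave 14 to 20 higher and 11 to 15 lower. With the replicate block, 5 and 1 Notch genes and 16 and 13 other pathway genes were called, with RBPJ and KAT2A gained and DLK2 lost. The deviations of same-numbered libraries correlated at 0.11, -0.01 and 0.08, and 3 of 6 libraries correlated best with their own number. With 3 libraries per group, these values cannot settle whether the numbers pair the libraries.

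Of 273 values of 19 single genes under the alternatives, 264 kept direction and call, 8 lost the call (7 of them TLE2) and 1 changed sign, NRARP at 0.0060 without control replicate 3, the highest of its values with a library left out, the lowest being -0.10. The cause was not tested. Levels under about 10 counts, as for HEYL and DLL1, limit what could be detected.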
